A study of Mus musculus with 21 samples.

Results

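The 10 genes described here are response genes of a pair of stress sensing transcription factors, 7 of NRF2 (Nqo1, Gclm, Gclc, Txnrd1, Srxn1, Slc7a11 and Gsr) and 3 of AHR (Cyp1b1, Tiparp and Ahrr), chosen by their symbols from a table of 24454 genes. All 10 were in the table and all 10 were among the 13719 genes abundant enough to be tested. The data are RNA-seq profiles of mouse embryonic fibroblasts (MEFs), 21 libraries in 7 groups of 3. Rtel1f/f MEFs, whose Rtel1 alleles are flanked by loxP sites, were infected with a control adenovirus (Ad-GFP, +GFP), with an adenovirus that carries Cre recombinase (Ad-Cre, +Cre) or with Ad-GFP and given 10 uM TMPyP4, a ligand that stabilizes G4-DNA, for the last 48 h, and were collected 96 h after infection. RTEL1 is a helicase that unwinds G4-DNA and telomeric t-loops. Rtel1f/f MEFs transduced with RTEL1 C1252A/C1255A, a form defective in t-loop unwinding (the CA line), and Trf1f/f MEFs, in which Cre removes Terf1, the gene for a telomere-binding shelterin protein, were each infected with Ad-GFP or Ad-Cre. The CA line carries the mutant RTEL1 in its +GFP cells too, on top of the floxed alleles, and every control received Ad-GFP. For the CA line and the Trf1f/f cells the labels state no time of collection. The labels call the 3 libraries of a group biological replicates without saying whether they came from separate cultures or embryos, so p-values measure only the spread between these libraries.

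NRF2 (gene Nfe2l2) is held at low levels by KEAP1, which hands it to a CUL3 ubiquitin ligase. When electrophiles or oxidants modify KEAP1, NRF2 accumulates, pairs with a small MAF protein and binds antioxidant response elements of genes that make and recycle glutathione and thioredoxin, a site from which BACH1 can keep it. AHR is kept in the cytoplasm by HSP90 and its co-chaperones, enters the nucleus when it binds an aromatic ligand, pairs there with ARNT and binds a short core in genes such as Cyp1a1 and Cyp1b1, while its own targets Tiparp and Ahrr act back on it as inhibitors.

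The 250 bases before the transcription start were taken from RefSeq (GRCm38.p6, the assembly of mm10) for 8 of the 10 members. In these 10 windows (Txnrd1 has 3) the antioxidant response element core TGACNNNGC, the NRF2-small MAF element TGANTCAGC and the AHR-ARNT core GCGTG were searched on both strands, where a TGANTCAGC whose free base is C is also a TGACNNNGC. Of 32851 promoter windows of this length over all genes, 10.2% held TGACNNNGC, 1.02% TGANTCAGC and 28.2% GCGTG. Among the members TGACNNNGC was found in Gclm (134 bases before the start) and in a Txnrd1 window (92 bases before), and TGANTCAGC in Srxn1 (45 bases before). The Gclm window (ending at chr3:122245556) and this Txnrd1 window (ending at chr10:82859205) end inside the gene spans given below. Their distances are counted from the windows' own transcript starts. GCGTG was found in 8 of the 10 windows, which belong to 6 of the 8 members, including all 3 AHR members. The windows of Nqo1 and Slc7a11 held none of these letters, which says nothing of sites elsewhere. The windows of Srxn1, which held the rarest of these letters and had the largest rise among the members after Rtel1 loss, and of the 3 AHR members are printed 5′ to 3′ on the gene's strand, with matches in capitals. They lie at chr2:152105274-152105523 (Srxn1, plus strand), chr17:79715062-79715311 (Cyp1b1, minus strand), chr3:65528197-65528446 (Tiparp, plus strand) and chr13:74292332-74292581 (Ahrr, minus strand). A match on the opposite strand reads CACGC.
Srxn1: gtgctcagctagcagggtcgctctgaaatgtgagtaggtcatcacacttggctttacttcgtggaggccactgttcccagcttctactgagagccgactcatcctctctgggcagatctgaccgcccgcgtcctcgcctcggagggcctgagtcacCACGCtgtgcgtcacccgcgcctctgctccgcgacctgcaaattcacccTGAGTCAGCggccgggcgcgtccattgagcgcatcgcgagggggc
Cyp1b1: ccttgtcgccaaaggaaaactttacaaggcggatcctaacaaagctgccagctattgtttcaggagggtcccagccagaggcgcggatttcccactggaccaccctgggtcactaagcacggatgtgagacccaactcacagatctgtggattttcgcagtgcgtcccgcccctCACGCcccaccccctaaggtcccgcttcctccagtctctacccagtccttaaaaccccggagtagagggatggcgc
Tiparp: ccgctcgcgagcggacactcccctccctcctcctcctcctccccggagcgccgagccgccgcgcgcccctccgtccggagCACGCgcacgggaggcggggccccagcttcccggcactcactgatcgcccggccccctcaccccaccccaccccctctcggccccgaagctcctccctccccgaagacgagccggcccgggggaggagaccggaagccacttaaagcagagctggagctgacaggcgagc
Ahrr: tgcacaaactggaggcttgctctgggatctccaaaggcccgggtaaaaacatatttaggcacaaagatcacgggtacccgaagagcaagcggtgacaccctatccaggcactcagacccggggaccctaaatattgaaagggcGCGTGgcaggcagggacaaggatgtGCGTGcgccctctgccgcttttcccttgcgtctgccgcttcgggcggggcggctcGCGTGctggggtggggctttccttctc
In Srxn1 the capitals mark CACGC 94 and TGAGTCAGC 45 bases before the start. Cyp1b1 and Tiparp each have a single CACGC, 76 and 170 bases before the start, and Ahrr has GCGTG 107, 82 and 27 bases before it. These are matches of letters, and binding was not measured.

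Total counts were between 32069888 and 51938593 per library (median 43013208). Levels are given as CPM, a gene's count relative to the TMM-normalized size of its library, which compares a gene between libraries. The targeted genes followed the labels. Rtel1 had 66.2, 59.1 and 60.2 CPM in the Rtel1f/f +GFP libraries and 29.9, 31.9 and 26.8 CPM in the +Cre libraries, and Terf1 had 5, 2 and 1 counts in the Trf1f/f +Cre libraries. In the CA line, where transcripts of the mutant and of the floxed alleles are counted together, the 3 +GFP libraries held 338, 328 and 331 CPM of Rtel1 and the +Cre libraries 283, 253 and 257 CPM. The Rtel1f/f +GFP libraries, the control of the Rtel1 loss and TMPyP4 comparisons, stood apart from the rest in how they varied. The deviations from the group means of libraries that share a number correlated at 0.409 to 0.758 between Rtel1f/f +Cre and TMPyP4 cells and at 0.195 to 0.811 between Rtel1f/f +Cre and CA +GFP cells, but only at -0.017 to 0.131 between Rtel1f/f +GFP and +Cre cells (Pearson's r over 11840 genes, a description). The part of this in the comparisons with Rtel1f/f +GFP cells was not tested, and values against the CA +GFP libraries are given beside them. Levels of fibroblast markers also differed between groups. The summed TPM (a level per transcript length) of 8 such markers was between 5320.4 and 5814 in Rtel1f/f +GFP, between 2427 and 3195 in +Cre, between 3024 and 4189 in TMPyP4 and between 2602 and 3831 in CA +GFP libraries, and 6 of the 8 were called after Rtel1 loss (2 higher, 4 lower), where 43% of all genes were called (22% higher, 21% lower). In Trf1f/f libraries the sum was between 6061 and 8711 TPM with GFP and between 6262 and 7695 TPM with Cre, above all Rtel1f/f +GFP libraries. The part of these marker differences in the results was not tested. The fibroblast marker Thy1 was nearly absent from the Rtel1f/f and CA libraries, with group means of at most 0.27 TPM, against 325 TPM in Trf1f/f +GFP cells. Marker lists of epithelial (5 genes), endothelial (4), macrophage (5), muscle (4) and neural (5) cells summed to at most 3.87, 1.71, 12.2, 0.52 and 40.4 TPM in any library. Of the few that could be tested, 2 of 3 endothelial (median log2 fold change 2.35), 1 of 3 epithelial and 1 of 2 macrophage markers were called higher after Rtel1 loss, and 1 of 3 epithelial markers lower. Of these, Adgre1, Ptprc, Myod1, Myog and Sox10, picked out by their values, had no more than 3 counts in any library. In TPM the median log2 ratio of all genes tested was -0.28 for +Cre, -0.20 for TMPyP4 and -0.28 for CA +GFP against Rtel1f/f +GFP cells, where the fit on counts gave -0.03, -0.01 and -0.03, and relative to these medians the members' changes were close on both scales (0.32 and 0.31 for Txnrd1 after Rtel1 loss). In bulk RNA, fewer cells that express a gene and less RNA per cell cannot be told apart.

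After Rtel1 loss 8 of the 10 members passed an adjusted p of 0.01 (edgeR's quasi-likelihood test, two-sided, with p adjusted by Benjamini-Hochberg over all genes tested), 6 higher and 2 lower than in Rtel1f/f +GFP cells, where 43% of all genes tested were called (22% higher, 21% lower). The libraries of the 2 groups did not overlap for any of the 10 members, against 61.4% of all genes. The members' median log2 fold change was 0.34, beside -0.03 over all genes tested. Without +Cre replicate 2, 5 members were called, Gclm (log2 fold change 0.32, adjusted p = 0.0454), Gclc (0.27, adjusted p = 0.0294) and Tiparp (0.38, adjusted p = 0.0125) being lost. In that fit 5000 of 13857 genes tested were called. Fitted with only the libraries compared, 4 members were called, where 4386 of 12744 genes tested were called. TMPyP4, read against the same +GFP libraries, gave 3 calls among the members, 2 higher and 1 lower, where 30% of all genes were called (16.6% higher, 13.4% lower), so the members' share equalled the background. The libraries of 7 members did not overlap, against 57.8% of all genes. The members' median log2 fold change was 0.25, beside -0.01 over all genes. Without +GFP replicate 2 or 3 the only member called was Cyp1b1, and Gclc had adjusted p = 0.0224 and 0.0181. In these fits 2466 and 2710 of 13826 genes were called. In the CA line 0 members were called after Cre by the same edgeR test, where 1.09% of all genes were called (0.525% higher, 0.569% lower). In that line 1 member (Cyp1b1) had an unadjusted p under 0.05, as had 1950 of 13719 genes, and DESeq2 called 1 member, beside 335 of 18517 genes. Libraries of 2 members (Slc7a11 and Cyp1b1) did not overlap there, against 16.2% of all genes. In Trf1f/f cells Cre gave 1 call (Tiparp, higher), where 3.42% of all genes were called (2.65% higher, 0.765% lower), and 5 members did not overlap, against 26.9% of all genes. The members' median log2 fold changes there were -0.06 and -0.12, beside 0.00 over all genes in each.

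**Figure D1:**
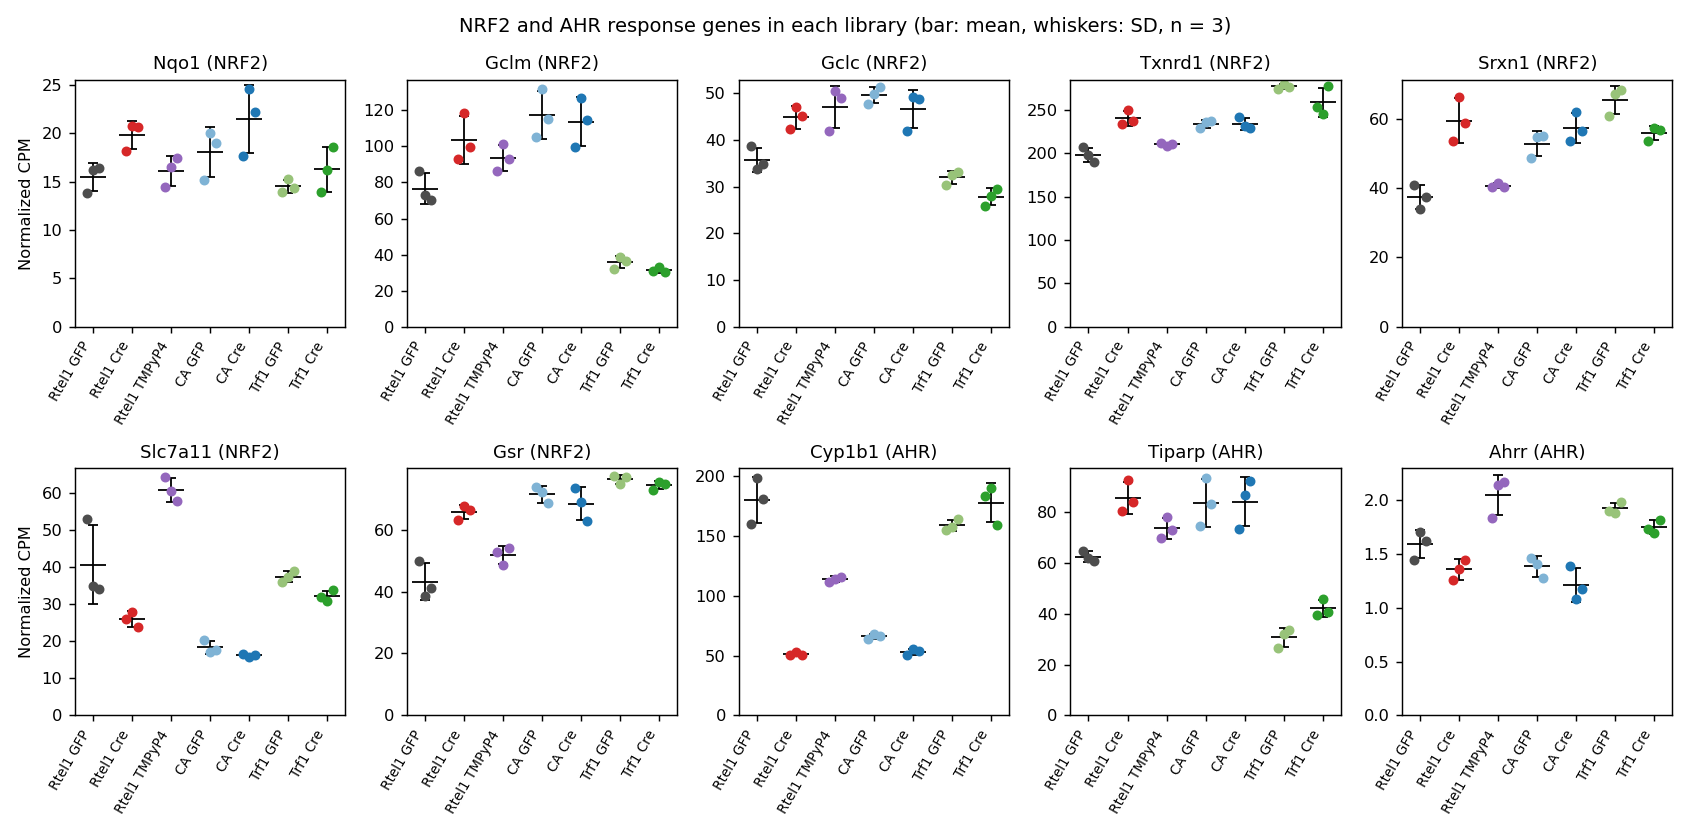
Normalized CPM (vertical axis of each panel, from 0) of the 10 genes in the 21 libraries, by group on the horizontal axis, where each point is a library and the bar and whiskers are the mean and SD of 3. Cyp1b1 lies between 160 and 198 CPM in the Rtel1 GFP libraries, and between 50.1 and 53.0 CPM in the Rtel1 Cre libraries.

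Glutathione synthesis begins with a ligase whose catalytic subunit is Gclc and whose modifier subunit is Gclm. The synthesis draws on cystine that Slc7a11 brings into the cell, and oxidized glutathione is reduced again by Gsr. Per transcript length the most abundant of these 4 in Rtel1f/f +GFP cells was Gclm with 80.1 ± 8.96 TPM, followed by Gsr with 34.3 ± 4.31, Gclc with 21.9 ± 1.37 and Slc7a11 with 8.94 ± 2.27 TPM (SD, n = 3). Gclm (chr3:122245487-122267215) had 86.4, 72.8 and 70.3 CPM in the Rtel1f/f +GFP libraries, 92.9, 119 and 99.6 CPM with Cre and 86.5, 101 and 92.8 CPM with TMPyP4. All 3 +Cre libraries were above the highest control, and the TMPyP4 libraries nearly met it. The log2 fold change was 0.44 after Rtel1 loss (SE 0.114, adjusted p = 0.0032 by the same edgeR test) and 0.29 under TMPyP4, which was not called (adjusted p = 0.0476). The call after Rtel1 loss was also lost without +GFP replicate 2 (adjusted p = 0.025) or 3 (adjusted p = 0.0311). Gclc (chr9:77754535-77794489) had 38.7, 33.9 and 34.8 CPM in the +GFP libraries, 42.3, 47.2 and 45.1 CPM with Cre and 41.9, 50.4 and 48.9 CPM with TMPyP4. It was called higher in both, with log2 fold changes of 0.32 (SE 0.0832, adjusted p = 0.00292 by the same edgeR test) and 0.40 (SE 0.0832, adjusted p = 0.000945). Both calls of Gclc were lost without +GFP replicate 2 or 3, and that after Rtel1 loss also without +Cre replicate 3, at adjusted p between 0.0121 and 0.028. Gsr (chr8:33653238-33698162) rose from 49.8, 38.4 and 41.2 CPM to 63.2, 67.5 and 66.4 CPM with Cre, a log2 fold change of 0.61 (SE 0.0792, adjusted p = 4.49e-06 by the same edgeR test). With TMPyP4 it had 52.9, 48.4 and 54.1 CPM, which overlapped the control, and a log2 fold change of 0.26 just outside the threshold (adjusted p = 0.012), which it passed without +GFP replicate 1 (0.38, adjusted p = 0.000246).

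Slc7a11 (chr3:50364936-50499087) was the only NRF2 member with opposite calls in the 2 comparisons. It had 53.0, 34.8 and 34.2 CPM in the Rtel1f/f +GFP libraries, 26.0, 28.0 and 23.9 CPM with Cre and 64.3, 60.5 and 57.9 CPM with TMPyP4. All +Cre libraries were below and all TMPyP4 libraries above the controls, of which replicate 1 was well above the others. The log2 fold change was -0.64 after Rtel1 loss (SE 0.124, adjusted p = 0.000265 by the same edgeR test) and 0.58 under TMPyP4 (SE 0.123, adjusted p = 0.00101). Without +GFP replicate 1 these became -0.41 (adjusted p = 0.000455) and 0.82 (adjusted p = 7.92e-07). The call under TMPyP4 was lost without +GFP replicate 2 (log2 fold change 0.47, adjusted p = 0.0116) or replicate 3 (0.45, adjusted p = 0.0109). Both calls were lost when only the libraries compared were fitted, where adjusted p was 0.0151 and 0.0231.

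In the other lines Cre left the 4 glutathione genes without a call. Gclm had 105, 132 and 115 CPM in CA +GFP and 99.6, 127 and 115 CPM in CA +Cre libraries, and 32.03, 38.7 and 36.3 CPM in Trf1f/f +GFP and 30.9, 33.0 and 30.2 CPM in +Cre libraries. Gsr had 73.9, 72.2 and 68.5 CPM in CA +GFP and 73.4, 68.9 and 62.8 CPM in CA +Cre libraries, and between 73.0 and 77.3 CPM in all Trf1f/f libraries. For both genes the libraries of +GFP and +Cre cells overlapped in each line. Gclc had 47.8, 49.9 and 51.3 CPM in CA +GFP, 41.8, 49.1 and 48.7 CPM in CA +Cre, 30.4, 32.6 and 33.0 CPM in Trf1f/f +GFP and 25.9, 28.0 and 29.6 CPM in Trf1f/f +Cre libraries. Slc7a11 had 20.3, 17.0 and 17.7 CPM in CA +GFP, 16.6, 15.8 and 16.2 CPM in CA +Cre, 36.0, 37.3 and 39.0 CPM in Trf1f/f +GFP and 32.01, 31.0 and 33.8 CPM in Trf1f/f +Cre libraries. The Slc7a11 libraries of +Cre cells lay below those of +GFP cells in both lines and those of Gclc did so in Trf1f/f cells, with adjusted p between 0.205 and 0.625 by the same edgeR test.

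The other 3 NRF2 members serve the thioredoxin system and quinone reduction. Txnrd1, the cytosolic thioredoxin reductase, was the most abundant member per transcript length, at 124 ± 6.78 TPM (SD, n = 3) in Rtel1f/f +GFP cells. Txnrd1 (chr10:82833951-82897724) had 207, 198 and 190 CPM in the +GFP libraries, 234, 250 and 238 CPM with Cre and 212, 209 and 211 CPM with TMPyP4. The 9 libraries fell into 3 groups without overlap, but the steps were small, with log2 fold changes of 0.28 after Rtel1 loss (SE 0.0532, adjusted p = 0.000249 by the same edgeR test) and 0.09 under TMPyP4 (adjusted p = 0.204). Srxn1 (chr2:152105524-152111376), sulfiredoxin, which repairs over-oxidized peroxiredoxins, had 41.0, 33.9 and 37.5 CPM in the +GFP libraries, 53.5, 66.4 and 58.7 CPM with Cre and 40.5, 41.5 and 40.4 CPM with TMPyP4. It had the largest rise of the 10 members after Rtel1 loss, a log2 fold change of 0.67 (1.59-fold, SE 0.0853, adjusted p = 3.54e-06 by the same edgeR test), while under TMPyP4 its libraries overlapped the control (log2 fold change 0.12, adjusted p = 0.266). Nqo1 (chr8:107388225-107403205), a quinone reductase often read as the standard NRF2 target, had 13.8, 16.2 and 16.4 CPM in the +GFP libraries, 18.2, 20.7 and 20.6 CPM with Cre and 14.4, 16.5 and 17.4 CPM with TMPyP4. The +Cre libraries were above all controls, yet Nqo1 was not called, with a log2 fold change of 0.36 (SE 0.132, adjusted p = 0.0287 by the same edgeR test) after Rtel1 loss and 0.06 (adjusted p = 0.749) under TMPyP4. The values of Nqo1, Txnrd1 and Srxn1 under TMPyP4, none of them called, were -0.14, -0.10 and -0.07 in TPM.

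Txnrd1 had 229, 236 and 238 CPM in CA +GFP, 242, 231 and 229 CPM in CA +Cre, 275, 280 and 277 CPM in Trf1f/f +GFP and 254, 245 and 278 CPM in Trf1f/f +Cre libraries. For Srxn1 these were 48.6, 54.7 and 55.1 CPM, 53.6, 62.0 and 56.6 CPM, 60.8, 67.3 and 68.3 CPM, and 53.6, 57.4 and 56.7 CPM in the same order. For Nqo1 they were 15.1, 20.1 and 19.0 CPM, 17.6, 24.6 and 22.2 CPM, 13.9, 15.3 and 14.3 CPM, and 13.9, 16.2 and 18.6 CPM. Only Srxn1 in Trf1f/f cells had no overlap between its +GFP and +Cre libraries, and it was not called there (log2 fold change -0.23, adjusted p = 0.141 by the same edgeR test).

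The largest change of any member was in Cyp1b1 (chr17:79706940-79715061), a cytochrome P450 that AHR induces and that oxidizes aromatic hydrocarbons and estradiol. Cyp1b1 had 160, 198 and 181 CPM in the Rtel1f/f +GFP libraries, 50.1, 53.0 and 50.6 CPM with Cre and 111, 114 and 116 CPM with TMPyP4. The 3 groups were far apart and the TMPyP4 libraries lay between the others. Its level was 3.51-fold lower after Rtel1 loss (log2 fold change -1.81, SE 0.0762, adjusted p = 9.5e-12 by the same edgeR test) and 1.58-fold lower under TMPyP4 (log2 fold change -0.66, SE 0.074, adjusted p = 2.48e-06). In the CA line the +GFP libraries held 63.7, 68.2 and 66.3 CPM and the +Cre libraries 50.7, 55.3 and 53.7 CPM, without overlap, a log2 fold change of -0.31 that was not called (SE 0.0743, adjusted p = 0.0268 by the same edgeR test). It was called there when the replicate number was a block (adjusted p = 0.00773), in groups whose same-numbered libraries deviated together. Trf1f/f cells, at 155, 157 and 164 CPM in +GFP and 183, 190 and 159 CPM in +Cre libraries, overlapped.

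Tiparp (chr3:65528447-65555518), a mono-ADP-ribosyltransferase that AHR induces and that dampens AHR, had 64.7, 62.1 and 60.6 CPM in the Rtel1f/f +GFP libraries, 80.4, 92.6 and 84.1 CPM with Cre and 69.8, 78.1 and 73.0 CPM with TMPyP4. Its direction was opposite to that of Cyp1b1. It rose after Rtel1 loss (log2 fold change 0.46, SE 0.102, adjusted p = 0.000965 by the same edgeR test) and was not called under TMPyP4 (0.24, adjusted p = 0.0681). In Trf1f/f cells, where its level was lowest, Tiparp rose from 26.5, 32.2 and 33.6 CPM to 39.7, 45.9 and 40.9 CPM. These libraries did not overlap, and the log2 fold change of 0.46 (SE 0.103) had an adjusted p at the threshold (0.01 by the same edgeR test) that rose to between 0.0128 and 0.0997 whichever of the 6 libraries was left out, and the call was also lost in 4 of 7 other alternatives. In the CA line the libraries overlapped, at 74.6, 93.5 and 83.3 CPM in +GFP and 73.4, 86.8 and 92.3 CPM in +Cre cells. Ahrr (chr13:74211118-74292331), the AHR repressor, was scarce, with 44 to 91 counts per library. It had 1.45, 1.71 and 1.62 CPM in Rtel1f/f +GFP, 1.26, 1.36 and 1.45 CPM in +Cre and 1.84, 2.14 and 2.17 CPM in TMPyP4 libraries, and was called in neither comparison (log2 fold changes -0.23 and 0.37, adjusted p = 0.156 and 0.0205 by the same edgeR test). In the other groups it lay between 1.08 and 1.98 CPM.

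**Figure D2:**
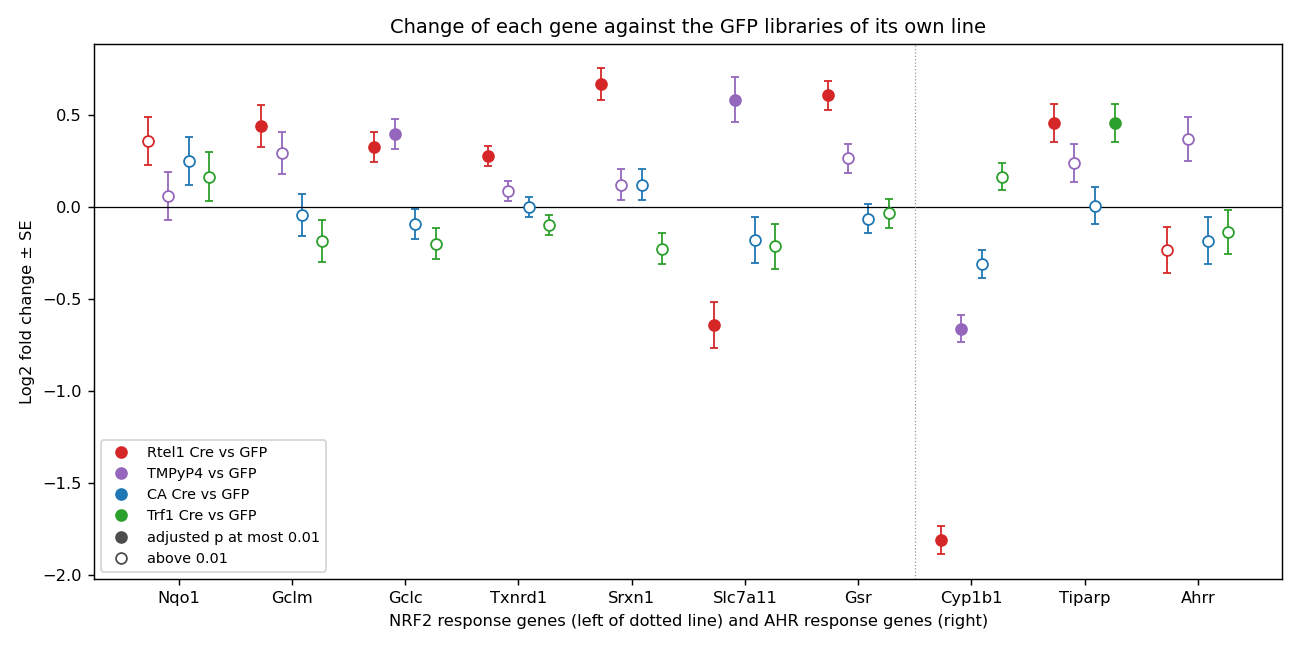
Log2 fold change ± SE (vertical axis) of the 10 genes (horizontal axis) in 4 comparisons with the +GFP libraries of the same line, filled where the adjusted p is at most 0.01. Cyp1b1 has the lowest point (-1.81 after Rtel1 loss), and Slc7a11 is filled below 0 after Rtel1 loss and above 0 under TMPyP4.

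Because Rtel1 loss and TMPyP4 were read against the same +GFP libraries, the 2 treatments were also compared with each other. In this comparison 5 members were called by the same edgeR test, 2 higher and 3 lower with Cre, where 15.2% of all genes were called (6.13% higher, 9.09% lower), and 8 members did not overlap, against 37.8% of all genes. Slc7a11 differed most, at 26.0, 28.0 and 23.9 CPM with Cre against 64.3, 60.5 and 57.9 CPM with TMPyP4 (log2 fold change -1.23, SE 0.125, adjusted p = 1.4e-06 by the same edgeR test). Cyp1b1 (-1.15, adjusted p = 5.77e-09) and Ahrr (-0.60, adjusted p = 0.00158) were also lower with Cre. Srxn1 (0.55, adjusted p = 0.000121) and Gsr (0.34, adjusted p = 0.00359) were higher with Cre. The call of Ahrr was lost without +Cre replicate 1 (adjusted p = 0.0106), and that of Gsr without +Cre replicate 2 or TMPyP4 replicate 1 or 2 (adjusted p between 0.0108 and 0.0252). Gclc and Gclm overlapped, with 95% intervals of the log2 difference from -0.25 to 0.11 and from -0.09 to 0.39. Txnrd1 (0.19, adjusted p = 0.0128) and Tiparp (0.22, adjusted p = 0.131) were not called, with intervals from 0.08 to 0.31 and from 0.00 to 0.44. Same-numbered libraries of these 2 groups deviated together, and when the replicate number was a block 6 members were called, Nqo1 being added (log2 fold change 0.30 in the fit without the block, adjusted p = 0.0058 with it and 0.112 without it by the same edgeR test). With the block 2970 of 13719 genes were called, beside 2088 without it.

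The +GFP cells of the 3 lines were also compared. Between CA +GFP and Rtel1f/f +GFP cells 8 members were called by the same edgeR test, 6 higher and 2 lower in CA +GFP cells, where 44.7% of all genes were called (22.6% higher, 22.1% lower), and 8 did not overlap, against 63.6% of all genes. Gclm (log2 fold change 0.62), Gclc (0.47), Txnrd1 (0.24), Srxn1 (0.49), Gsr (0.73) and Tiparp (0.42) were higher in CA +GFP cells, and Slc7a11 (-1.15) and Cyp1b1 (-1.45) were lower, with adjusted p between 8.59e-11 and 0.00174 by that test. Txnrd1, which had -0.01 in TPM, lost its call without Rtel1f/f +GFP replicate 3 (adjusted p = 0.0119), and Tiparp without that library (0.0126) or CA +GFP replicate 2 (0.0165). The comparison of Rtel1 loss uses the same Rtel1f/f +GFP libraries, and gave 0.44 for Gclm, 0.32 for Gclc, 0.28 for Txnrd1, 0.67 for Srxn1, 0.61 for Gsr, 0.46 for Tiparp, -0.64 for Slc7a11 and -1.81 for Cyp1b1. Transduction, the mutant protein, a time of collection not stated for the CA line and whatever set the Rtel1f/f +GFP libraries apart cannot be told apart here. Between Trf1f/f +GFP and Rtel1f/f +GFP cells 5 members were called, where 54.9% of all genes were called (30.3% higher, 24.5% lower), and 7 did not overlap, against 72.6% of all genes. Txnrd1 (log2 fold change 0.48), Srxn1 (0.80) and Gsr (0.82) were higher in Trf1f/f +GFP cells and Gclm (-1.10) and Tiparp (-1.02) were lower, with adjusted p between 4.72e-08 and 2.79e-07 by that test. Cyp1b1 (-0.18, adjusted p = 0.0394) was called when Rtel1f/f +GFP replicate 1 was left out (-0.27, adjusted p = 0.00417).

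Read against the CA +GFP libraries in place of the Rtel1f/f +GFP libraries, a choice made after seeing the data, Rtel1f/f +Cre cells had 1 member called by the same edgeR test, 0 higher and 1 lower, where 7.76% of all genes were called (3.8% higher, 3.95% lower), and 4 members did not overlap, against 24.3% of all genes. This was Cyp1b1, at 50.1, 53.0 and 50.6 CPM against 63.7, 68.2 and 66.3 CPM (log2 fold change -0.37, SE 0.0744, adjusted p = 0.00222). Slc7a11 then had the opposite direction (0.50, adjusted p = 0.0108), as had Gclm (-0.18), Gclc (-0.15) and Gsr (-0.12), with adjusted p between 0.304 and 0.388. Libraries that share a number deviated together in these groups, and when the replicate number was a block Slc7a11 was called as well (0.51, adjusted p = 0.00434 by the same edgeR test), where 10.4% of all genes were called. TMPyP4-treated cells had 5 members called against CA +GFP cells, where 17% of all genes were called (9.94% higher, 7.07% lower), and 7 did not overlap, against 40.3% of all genes. Slc7a11 (1.73, adjusted p = 1.97e-08), Cyp1b1 (0.78, adjusted p = 4.22e-07) and Ahrr (0.57, adjusted p = 0.00213) were higher in TMPyP4-treated cells, and Srxn1 (-0.37, adjusted p = 0.00314) and Gsr (-0.46, adjusted p = 0.000249) were lower. The block added Gclm (-0.33, adjusted p = 0.00786), where 23.9% of all genes were called. These comparisons cross lines, so treatment and the difference between CA +GFP and Rtel1f/f +GFP cells (-1.15 for Slc7a11, -1.45 for Cyp1b1) cannot be told apart in them. Cyp1b1 was lower in Rtel1f/f +Cre cells than in either group of +GFP cells. In TMPyP4-treated cells its direction turned with the group it was read against. Slc7a11 was called higher in TMPyP4-treated cells than in either group of +GFP cells, while its direction in Rtel1f/f +Cre cells turned.

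Whether Cre acted differently by line was tested as a difference of log2 fold changes (Cre against GFP in Rtel1f/f cells minus the same in the other line). Against the CA line 5 members were called by the same edgeR test, 4 higher and 1 lower, where 25.1% of all genes were called (12.8% higher, 12.3% lower). Against Trf1f/f cells 6 members were called, 5 higher and 1 lower, where 30.2% of all genes were called (15.8% higher, 14.5% lower). Cyp1b1 had the largest difference, -1.50 (SE 0.105, adjusted p = 5.77e-08) against the CA line and -1.98 (SE 0.105, adjusted p = 5.99e-10) against Trf1f/f cells. Gsr (0.67 and 0.64), Srxn1 (0.55 and 0.90), Gclc (0.42 and 0.53) and Txnrd1 (0.28 and 0.38) had larger values in Rtel1f/f cells than in either other line. Against the CA line those of Gclc and Txnrd1 were each lost in 9 of the 12 fits that omit a library (adjusted p up to 0.0463 and 0.0433), and that of Srxn1 without CA +GFP replicate 3, Rtel1f/f +Cre replicate 2 or +GFP replicate 2 (adjusted p between 0.0102 and 0.0144), so that 2 members were called when any 1 of these 3 libraries was left out. In these 3 fits 2731 of 13855, 2779 of 13857 and 2353 of 13826 genes were called, in the same order. Against Trf1f/f cells Gclc was lost without Rtel1f/f +GFP replicate 2 or 3 or Trf1f/f +Cre replicate 1 (adjusted p between 0.0102 and 0.0127). Gclm did so against Trf1f/f cells (0.63, lost in 8 of the 12 fits that omit a library, at adjusted p up to 0.027), but was not called against the CA line (0.49, adjusted p = 0.0239 by the same edgeR test). For Nqo1, Ahrr and Slc7a11 no difference was called, and the 95% intervals against the CA line were -0.29 to 0.51, -0.43 to 0.33 and -0.84 to -0.08. Tiparp differed by 0.45 from the CA line (adjusted p = 0.0195, called at 0.0097 without CA +GFP replicate 1) and by 0.00 from Trf1f/f cells, with a 95% interval from -0.32 to 0.32. All of these differences use the Rtel1f/f +GFP libraries. Line and time after infection, which is not stated for the CA line and Trf1f/f cells, cannot be told apart in them.

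**Figure D3:**
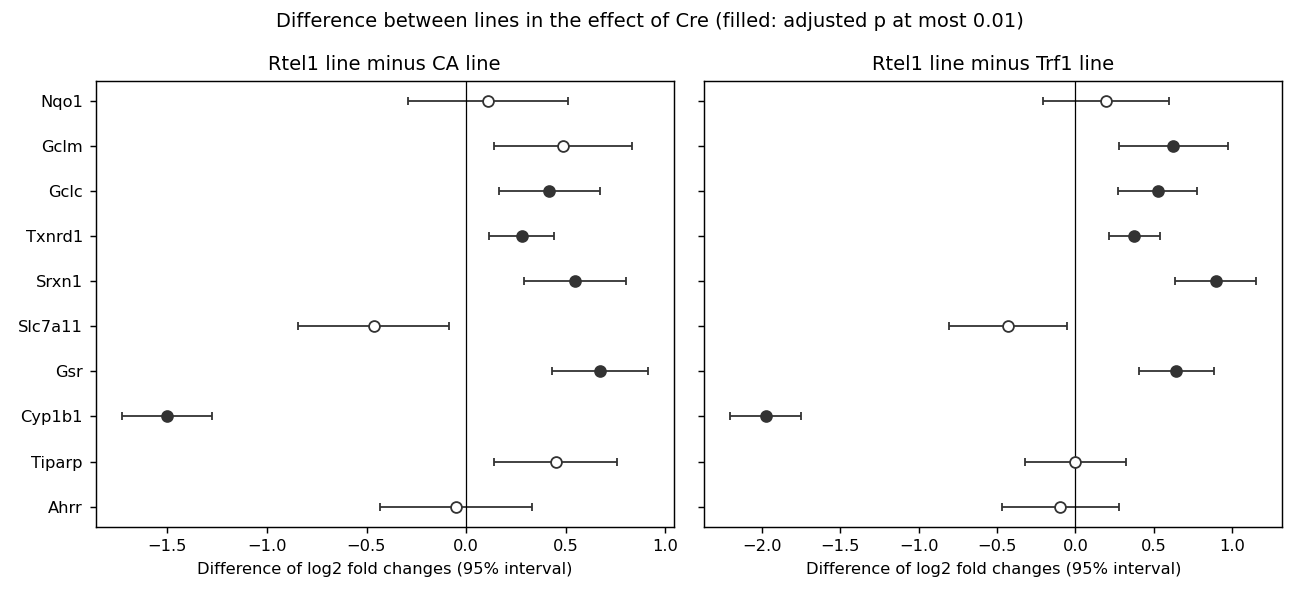
Difference between lines in the log2 fold change after Cre (horizontal axis, with 95% intervals) for the 10 genes (vertical axis), filled where the adjusted p is at most 0.01. Cyp1b1 lies at -1.50 and -1.98, while Srxn1 and Gsr lie between 0.55 and 0.90.

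Of 10 regulators of NRF2, all tested, 2 were called higher and 3 lower after Rtel1 loss (50%, where 43% of all genes were called, 22% higher and 21% lower) and 1 higher and 2 lower under TMPyP4 (30%, as over all genes), shares near those of all genes. None was called after Cre in the CA line or in Trf1f/f cells by the same edgeR test. An unadjusted p under 0.05 was found for 0 genes in the CA line and 3 in Trf1f/f cells, beside 1950 and 2369 of all 13719 genes. Nfe2l2 had 65.9, 71.2 and 65.9 CPM in the Rtel1f/f +GFP libraries, 59.7, 74.7 and 66.5 CPM with Cre and 75.6, 77.1 and 78.4 CPM with TMPyP4. The +Cre libraries overlapped the controls (log2 fold change -0.02, adjusted p = 0.904 by the same edgeR test), and the TMPyP4 libraries lay above them without a call (0.19, adjusted p = 0.109). Keap1, its inhibitor, had 62.7, 62.4 and 63.8 CPM in the +GFP libraries and 60.8, 34.8 and 56.3 CPM with Cre, all below the control but widely spread, and was not called (log2 fold change -0.31, adjusted p = 0.252 by the same test). Bach1, the repressor that competes with NRF2, had 52.9, 61.0 and 56.1 CPM in the +GFP libraries, 47.1, 43.4 and 41.0 CPM with Cre and 48.3, 45.9 and 46.8 CPM with TMPyP4. It fell in both, by 0.37 (adjusted p = 0.000118) and by 0.27 (adjusted p = 0.00302) on the log2 scale by the same test. Cul3, the scaffold of the ligase that marks NRF2, rose in both (0.41 and 0.34), and its partner Rbx1 rose after Rtel1 loss (0.48). Nfe2l1, a relative of NRF2, fell after Rtel1 loss (log2 fold change -0.50), and Maff, a small MAF protein, fell under TMPyP4 (-0.24).

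Of 28 other NRF2 targets 26 could be tested. After Rtel1 loss 9 were called higher and 3 lower, with a median log2 fold change of 0.03 over the list, and under TMPyP4 5 were called higher and 2 lower, with a median of 0.01. These were 46.2% and 26.9% of the list, near the 43% and 30% of all genes. None was called after Cre in the CA line by the same edgeR test (5 with an unadjusted p under 0.05, beside 1950 of all 13719 genes), but when the replicate number was a block Ephx1 (log2 fold change 0.41, adjusted p = 0.000279) and Gstm1 (-0.32, adjusted p = 0.00671) were called there, where 2.11% of all genes were called. In Trf1f/f cells 1 was called higher and 1 lower. G6pdx, the first enzyme of the pentose phosphate pathway, had 92.9, 76.5 and 79.7 CPM in the Rtel1f/f +GFP libraries, 127, 148 and 132 CPM with Cre and 114, 129 and 119 CPM with TMPyP4 (log2 fold changes 0.71 and 0.54, adjusted p = 1.02e-06 and 4.31e-05 by the same edgeR test). Prdx1, a peroxiredoxin (0.70), and Txn1, thioredoxin (0.62), rose after Rtel1 loss, and Abcc4, an efflux pump (0.58), and Me1, malic enzyme (0.45), rose under TMPyP4. Gstm1, a glutathione transferase with close paralogs among which reads may be split, fell in both, from 56.5, 66.0 and 67.8 CPM to 22.0, 24.9 and 25.2 CPM with Cre and 35.9, 41.8 and 40.7 CPM with TMPyP4 (log2 fold changes -1.40 and -0.69). Hmox1, heme oxygenase, had 48.6, 55.5 and 56.6 CPM in the +GFP libraries and 54.0, 45.5 and 57.0 CPM with Cre, which overlapped, and 58.1, 56.6 and 60.9 CPM with TMPyP4, and was called in neither (adjusted p = 0.683 and 0.171). In Trf1f/f cells Ephx1, an epoxide hydrolase, rose after Cre from 92.4, 108 and 107 CPM to 156, 175 and 157 CPM (log2 fold change 0.67, adjusted p = 0.00104), and Idh1, a dehydrogenase that makes NADPH, fell (-0.42, adjusted p = 0.000996). Idh1 also fell after Rtel1 loss, from 86.4, 89.4 and 89.6 CPM to 60.8, 68.3 and 59.6 CPM (-0.49, adjusted p = 1.74e-05).

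Of 19 other antioxidant genes, all tested, 7 were called higher and 3 lower after Rtel1 loss (52.6%, beside 43% of all genes, median log2 fold change 0.21), 5 higher and 2 lower under TMPyP4 (36.8%, beside 30% of all genes, median 0.01), and none in the other lines by the same edgeR test (2 with an unadjusted p under 0.05 in each, beside 1950 of all 13719 genes in the CA line and 2369 in Trf1f/f cells). Prdx3, the mitochondrial peroxiredoxin, had 62.9, 54.3 and 57.3 CPM in the Rtel1f/f +GFP libraries, 107, 118 and 111 CPM with Cre and 89.6, 92.5 and 97.0 CPM with TMPyP4, all above the control (log2 fold changes 0.95 and 0.68). Prdx6 rose in both (0.68 in each), and Gpx8 rose after Rtel1 loss (0.62). Sod3, the extracellular superoxide dismutase, fell in both, from 13.3, 10.8 and 12.4 CPM to 6.01, 4.79 and 4.64 CPM with Cre and 3.71, 3.44 and 3.44 CPM with TMPyP4 (log2 fold changes -1.24 and -1.79). Of the paralogs of Txnrd1, Txnrd3 rose in both (0.38 and 0.57, adjusted p = 0.00151 and 6.85e-05 by the same edgeR test), while the mitochondrial Txnrd2 was called in neither (-0.10 and 0.12, adjusted p = 0.362 and 0.306).

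Of 7 genes of the AHR machinery, all tested, Ahr, Arnt and Arnt2 were called lower and Hsp90aa1, Hsp90ab1 and Ptges3 higher after Rtel1 loss and under TMPyP4, in comparisons that share their controls, with medians of -0.39 and -0.24 over the list. These are 85.7% of the list, beside 43% and 30% of all genes. Between CA +GFP and Rtel1f/f +GFP cells 6 of the 7 were called as well (3 higher, 3 lower, median -0.24), beside 44.7% of all genes. Between Trf1f/f +GFP and Rtel1f/f +GFP cells 6 were called (1 higher, 5 lower, median -0.46), beside 54.9% of all genes. After Cre none of the 7 was called in the other lines. An unadjusted p under 0.05 was found there for 1 in the CA line and 2 in Trf1f/f cells, beside 1950 and 2369 of all 13719 genes. Ahr had 37.9, 43.1 and 36.9 CPM in the Rtel1f/f +GFP libraries, 21.1, 22.5 and 20.2 CPM with Cre and 29.96, 30.1 and 31.5 CPM with TMPyP4. As for Cyp1b1, the TMPyP4 libraries lay between the other groups (log2 fold changes -0.89 and -0.36, adjusted p = 1.19e-07 and 0.00198 by the same edgeR test). Ahr was also low in the CA line, at 18.8, 21.7 and 19.4 CPM in +GFP and 14.8, 17.5 and 17.2 CPM in +Cre libraries, and lowest in Trf1f/f +GFP cells, at 8.88, 9.26 and 7.94 CPM, where Cyp1b1 stayed between 155 and 164 CPM. Arnt, its partner, had 179, 177 and 175 CPM in the Rtel1f/f +GFP libraries, 128, 128 and 124 CPM with Cre and 154, 151 and 144 CPM with TMPyP4 (log2 fold changes -0.48 and -0.24). Arnt2, a relative of Arnt, fell more, from 30.2, 43.0 and 37.9 CPM to 11.7, 11.3 and 10.8 CPM with Cre and 20.0, 19.8 and 20.2 CPM with TMPyP4 (log2 fold changes -1.72 and -0.89). The chaperones that hold AHR in the cytoplasm rose, Hsp90aa1 by 1.03 and 0.68, Hsp90ab1 by 0.63 and 0.43 and Ptges3 by 0.39 and 0.36 on the log2 scale. They serve many other proteins besides AHR.

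Of 8 other AHR targets only 4 could be tested. Cyp1a1, the most used marker of AHR activity, had 0 counts in all Rtel1f/f +GFP and Trf1f/f +GFP libraries and at most 7 counts in any library, so a change was not detectable at this depth, and Cyp1a2 had 0 counts throughout, where 3 counts per library is the limit that a count of 0 allows. After Rtel1 loss none of the 4 was called higher and 2 were called lower, Ugt1a6a (log2 fold change -1.04, 13 to 41 counts per library in these groups), which shares exons with other genes of the Ugt1a family so that its counts are uncertain, and Slc7a5, an amino acid transporter (-0.56), where 43% of all genes were called. None was called under TMPyP4 (1 with an unadjusted p under 0.05, beside 6935 of all 13719 genes) or after Cre in the other lines (0 in each, beside 1950 in the CA line and 2369 in Trf1f/f cells).

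**Figure D4:**
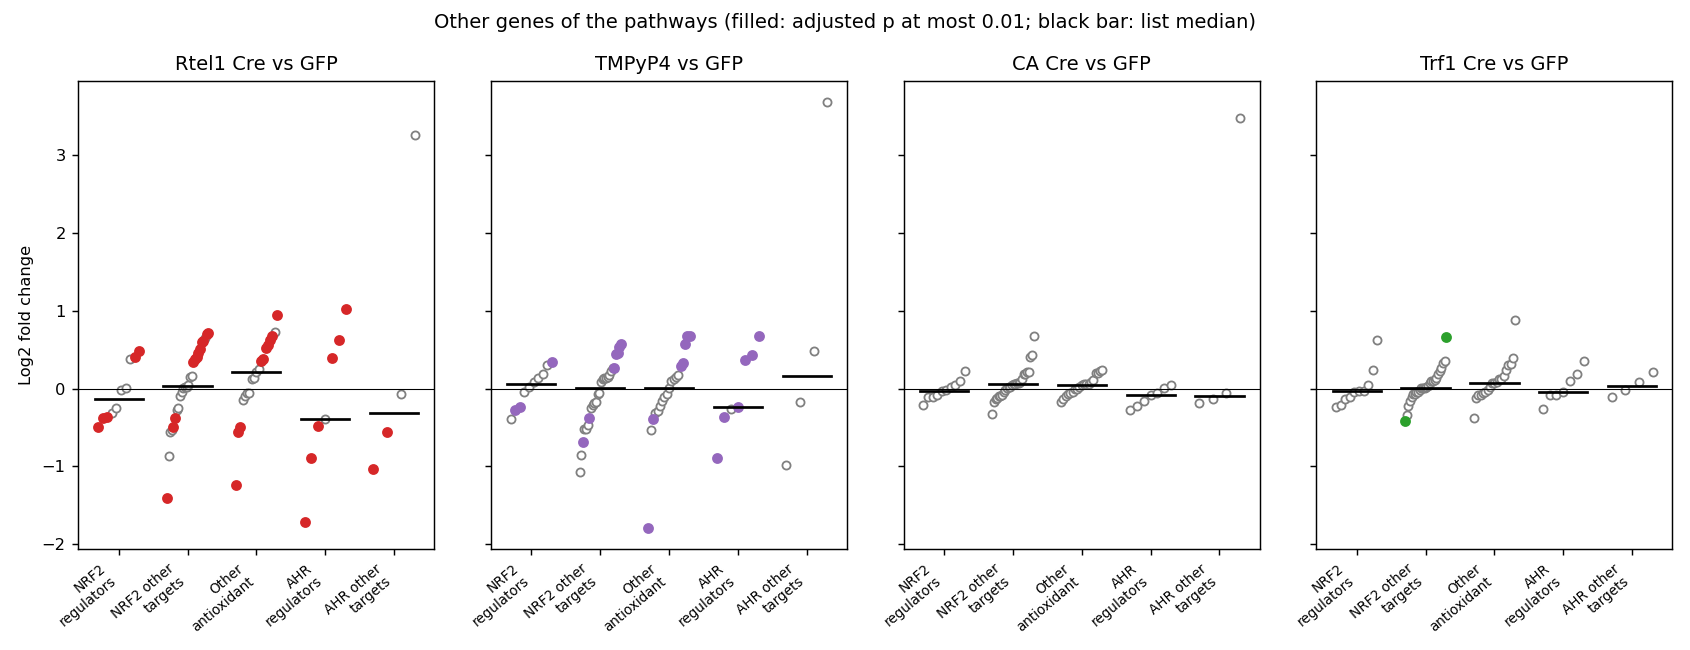
Log2 fold change (vertical axis) of each tested gene of 5 lists (horizontal axis) in 4 comparisons, with filled points at an adjusted p of at most 0.01 and a black bar at the list's median. Filled points lie on both sides of 0 in the Rtel1 Cre and TMPyP4 panels, and only 2 points, Ephx1 at 0.67 and Idh1 at -0.42, are filled in the last pair of panels.

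By the pattern of their 7 group means (log2 CPM, Pearson's r, among 10239 genes whose mean reached 5 CPM), the genes most like Nqo1 were Zc3h12c (r = 0.988), Slc25a13 (0.976) and Ptpn11 (0.973). Those most like Cyp1b1 were Lrch4 (0.998), Mapkbp1 (0.993) and Tns2 (0.992). Tns2, for example, had group means of 102 CPM in Rtel1f/f +GFP, 54.5 in +Cre, 83.3 in TMPyP4, 65.9 in CA +GFP and 56.8 CPM in CA +Cre cells. These are descriptions over 7 points that share their libraries.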

How the data were processed

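Polyadenylated RNA of 21 libraries of mouse embryonic fibroblasts was sequenced. The authors used cutadapt 1.9.1 for trimming and STAR 2.5.2a for alignment to mm10 RefSeq genes, and deposited, for each gene, the expected count that RSEM 1.3.0 estimated with the strand taken into account, not normalized and in whole numbers (0 values were not whole). The authors also deposited TPM values from RSEM, scaled for transcript length, which were used for levels between genes and marker sums. Read length, serum and instrument differ between the labels and the study's methods. Groups came from the labels. At most 3.67% of counts were identical between any 2 libraries.

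Counts were fitted in R 4.3.3 with edgeR 4.0.16 (TMM, filterByExpr, robust quasi-likelihood fit of all 7 groups, 14 residual degrees of freedom, Benjamini-Hochberg adjustment over 13719 genes), at an adjusted p of at most 0.01. SEs are the absolute log2 fold change divided by the square root of F, and intervals are 95%. Scripts were tested on simulated data. The members, gene lists and tests were chosen with earlier results of these data known. From each list the called genes with the 4 largest changes, no overlap and a mean of at least 1 CPM are named, besides Idh1 after Rtel1 loss, chosen after its value was seen, Nfe2l2, Keap1, Bach1, Hmox1, Ahr, Arnt, Cyp1a1, Txnrd2, Txnrd3 and the 3 genes most like Nqo1 and Cyp1b1. Promoters were matched by symbol. Figures were drawn with matplotlib 3.10.9.

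Pairing of same-numbered libraries, taken to hold where all 3 correlations of their deviations exceed 0.1, held between CA +Cre and +GFP cells (0.864, 0.839 and 0.424), between Rtel1f/f +Cre and TMPyP4 cells (0.724, 0.758 and 0.409) and between CA +GFP and Rtel1f/f +Cre cells (0.781, 0.811 and 0.195) or TMPyP4 cells (0.776, 0.693 and 0.303). It did not hold for any comparison with Rtel1f/f +GFP cells or between Trf1f/f +Cre and +GFP cells. Alternatives were DESeq2 1.42.0, its size factors, no filter, at least 10 counts in every library, the replicate block, an adjusted p of at most 0.05, only the groups compared and each library left out. TPM in place of counts, CA +GFP as the control (with and without the block) and the block for single lists were chosen after seeing the data.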

Additional observations from a re-analysis of the deposited data

Results flagged for a closer look

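The effect of Cre differed between lines in 11 results, by an edgeR test of the difference itself with p adjusted over all genes. Each value is the log2 fold change after Cre in Rtel1f/f cells minus that in the other line. Against the CA line the differences were 0.42 for Gclc, 0.28 for Txnrd1, 0.55 for Srxn1, 0.67 for Gsr and -1.50 for Cyp1b1. Against Trf1f/f cells they were 0.63 for Gclm, 0.53 for Gclc, 0.38 for Txnrd1, 0.90 for Srxn1, 0.64 for Gsr and -1.98 for Cyp1b1. All of them rest on the Rtel1f/f +GFP libraries, which stood apart from the others, and the part of this was not tested. Groups of 3 libraries were too small to be searched for outlying libraries.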

How the results depend on the processing

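Of 90 log2 fold changes of members, 82 kept their direction under all alternatives except TPM and the CA +GFP control, with or without the block, and of 41 called, 24 kept the call under all and 17 lost it under at least 1. None of the called values reversed in these. With only the groups compared the members called were 4 after Rtel1 loss, 3 between Rtel1 loss and TMPyP4, 0 in Trf1f/f cells and 2 for the difference from the CA line, and Tiparp's difference from Trf1f/f cells was -0.0018. Over all genes 4386 of 12744, 933 of 12501, 401 of 13236 and 2195 of 13018 were called in these, in the same order. At an adjusted p of 0.05 the members called were 6 under TMPyP4, 1 in the CA line and 8 for the difference from the CA line. Beside these, 5906, 416 and 5229 of 13719 genes were called. DESeq2 called 1 member in the CA line and 5 other NRF2 genes in Trf1f/f cells (2 in edgeR), with -0.0058 for Tiparp in the CA line. Of 18517 genes it called 335 in the CA line and 640 in Trf1f/f cells. The replicate block called 1 member in the CA line, 16, 2 and 6 other NRF2 genes under TMPyP4, in the CA line and in Trf1f/f cells (10, 0 and 2 without it), and 1 other AHR gene in Trf1f/f cells (0 without it), with -0.0078 for Tiparp's difference from Trf1f/f cells. Of all 13719 genes it called 5434, 289 and 757 in these 3 comparisons (4114, 150 and 469 without it). The pairing check did not hold in the TMPyP4 and Trf1f/f comparisons. With DESeq2's size factors, no filter, or at least 10 counts per library 0 members were called in Trf1f/f cells, and without a filter 3 for the difference from the CA line. Over all genes 444 of 13719, 418 of 18518 and 353 of 11650 were called in Trf1f/f cells, and 3163 of 18518 for that difference. In the CA line Tiparp was then at -0.0042 and -0.0023 with size factors and no filter and Txnrd1 at 0.0083 with at least 10 counts, where Tiparp's difference from Trf1f/f cells was -0.014. Txnrd1 between CA and Rtel1f/f +GFP cells was -0.006 in TPM.

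With the CA +GFP libraries, which are of another line, as control, 1 member was called after Rtel1 loss and 5 under TMPyP4. There 7.76% and 17% of all genes were called (10.4% and 23.9% with the replicate block). Directions turned after Rtel1 loss for Gclm (-0.1785), Gclc (-0.1478), Slc7a11 (0.5023) and Gsr (-0.1221), and under TMPyP4 for Nqo1 (-0.1618), Gclm (-0.3277), Gclc (-0.0766), Txnrd1 (-0.1527), Srxn1 (-0.3729), Gsr (-0.4648), Cyp1b1 (0.7844) and Tiparp (-0.1859). With the replicate block 2 and 6 members were called, and these values were -0.1794, -0.1484, 0.5062 and -0.1205, and -0.1588, -0.3255, -0.0791, -0.1527, -0.3716, -0.4644, 0.785 and -0.1827 in the same order. The cause was not tested.

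When 1 library was omitted, the members called ranged from 5 to 8 after Rtel1 loss (5 without +Cre replicate 2), from 1 to 4 under TMPyP4 (1 without +GFP replicate 2 or 3), from 2 to 5 for the difference from the CA line and were 0 in all 6 fits in Trf1f/f cells. Without +Cre replicate 2, 5000 of 13857 genes were called after Rtel1 loss. Without +GFP replicate 2 or 3, 2466 and 2710 of 13826 genes were called under TMPyP4. Over the main fit and all alternatives except TPM and the CA +GFP control, not only those that omit a library, uncalled values that changed sign ranged from -0.0138 to 0.1328 for Nqo1 under TMPyP4, in the CA line from -0.1447 to 0.0439 for Gclm, from -0.0308 to 0.01 for Txnrd1 and from -0.0855 to 0.0955 for Tiparp, from -0.2469 to 0.1097 for Slc7a11 between Trf1f/f and Rtel1f/f +GFP cells, from -0.0137 to 0.2422 for Nqo1 and from -0.106 to 0.0643 for Ahrr in the difference from the CA line, and from -0.0712 to 0.098 for Tiparp in the difference from Trf1f/f cells. Depth limits Ahrr (44 to 91 counts per library) and Cyp1a1.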
